A study of Rhamphochromis sp. 'chilingali' and Astatotilapia calliptera with 50 samples.

Results

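The interval from 4 to 10 somites in Rhamphochromis sp. 'chilingali' (RC), a fish-eating cichlid of the Lake Malawi system, was examined in 5 of the 50 whole-embryo RNA libraries of the series. The 5 were chosen by species and stage alone, as all RC embryos labelled with 10 somites (RC 10ss, n = 3) and all labelled with 4 somites (RC 4ss, n = 2, replicates 1 and 3). A somite is a block of mesoderm laid down on both sides of the neural tube, and the somite stage (ss) counts the blocks formed so far. Where a change was set beside that of another cichlid, 3 embryos at 10ss and 3 at 4ss of Astatotilapia calliptera (AC) were used. Every one of these embryos was a wild-type whole embryo with no experimental treatment, and all embryos of a species came from a single egg clutch. Eggs of breeding stocks were collected after fertilization and reared individually in well plates, in water with methylene blue. The stage was read on fixed embryos of the same sampling cohort, not on the sequenced embryo itself. Embryos of 1 clutch therefore stand for a stage of RC, and species and clutch cannot be told apart.

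While somites are added, the embryo elongates, the neural tube closes and neural crest cells form at its dorsal border. These cells switch on transcription factors such as sox10 and foxd3, leave the neural tube, and later give rise to pigment cells, peripheral neurons and glia, and much of the skull. In the somites, cells next to the notochord and under the ectoderm are sorted into precursors of muscle, vertebrae and dermis, under signals that include Hedgehog, Wnt, Bmp antagonists and retinoic acid.

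RC 10ss embryos differed among themselves, replicates 1 and 2 the most. Over 18967 genes tested, Pearson's r of log2 values was 0.928 between RC 10ss replicates 1 and 2, 0.961 between replicates 1 and 3, 0.962 between replicates 2 and 3, and 0.965 between the 2 RC 4ss embryos. Between stages, RC 10ss replicate 1 had r of 0.938 and 0.941 with RC 4ss replicates 1 and 3, above its r with RC 10ss replicate 2. With the same RC 4ss embryos, r was 0.920 and 0.915 for RC 10ss replicate 2, and 0.928 and 0.931 for replicate 3. Replicate 2 lay more than 2-fold below both other RC 10ss embryos for 1826 genes (9.63%), and replicate 1 more than 2-fold above both others for 1490 genes (7.86%). For the opposite sides the numbers were 201 and 343. Among the named genes on which replicate 2 was low were gch2, an enzyme of pteridine pigment synthesis, grhl3, a transcription factor of surface ectoderm, and tfap2c, and these 3 were picked after their values were seen. foxd3, sox9b and zic2a were the named genes on which it was high. Counts below are therefore also given without RC 10ss replicate 2, and calls that rest on single embryos are pointed out. Such counts speak to that embryo alone, and an unchanged count does not mean that it holds without another embryo. The 5 libraries held 17619762 to 25761159 reads on genes, 87271 to 125479 on long noncoding RNAs (lncRNAs) and 1021647 to 1309123 on transposable elements (TEs).

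Far more genes were higher than lower at RC 10ss. A gene was called where the adjusted p of limma (Benjamini-Hochberg over all genes tested) was under 0.05 and the fold change above 1.5. Of the 18967 genes, 1581 (8.34%) were higher and 356 (1.88%) were lower at RC 10ss than at RC 4ss, 10.2% in all. Their median log2 fold changes were 1.65 and -1.5, while the median over all genes tested was 0.01. More than 4-fold differences were found for 571 genes higher and 103 genes lower. The embryos of the 2 stages did not overlap for 1537 of the genes higher and 325 of those lower. Of all genes tested, 22.4% were higher and 15.6% lower with no overlap, 38% in all. The calls use the same embryos, so this contrast is no separate evidence. Without RC 10ss replicate 2, 1457 genes were higher and 151 lower. The number of lower genes also moved with the other embryos, to 961 without RC 10ss replicate 1, 158 without RC 10ss replicate 3, 169 without RC 4ss replicate 3 and 179 without RC 4ss replicate 1, and 1007 genes were higher without RC 4ss replicate 3. With the 5 embryos fitted alone, limma called 261 genes higher and 11 lower, while DESeq2 on the same 5 called 1215 higher and 271 lower. Between RC 15ss and RC 10ss, a comparison that shares the RC 10ss embryos, 20 genes (0.105%) were called, all higher at 15ss.

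Gene names were at hand for 236 of the genes, nearly all of them candidates of neural crest, pigment and skull development, and 230 of these passed the filter. At RC 10ss 41 were higher and 12 lower, against 8.34% and 1.88% of all genes, with a median log2 fold change of 0.13, and without RC 10ss replicate 2 the counts were 38 and 9. Of the 53 named genes called, 28 were called in every fit that left out an RC embryo, and 11 by limma when the 5 embryos were fitted alone. The study chose these candidates for differences between the species in the same embryos, so their share of calls is no independent evidence. Because a whole embryo was sequenced, more cells of a type and more RNA per cell cannot be told apart for any gene below. Levels are normalized counts, which are not per length and are compared between embryos and not between genes.

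The neural crest gene with the largest change was sox10 (ENSACLG00000016156), the transcription factor that keeps migrating crest cells multipotent and specifies pigment cells and glia. It had 769, 1001 and 999.6 normalized counts in the RC 10ss embryos, against 13.3 and 68.7 in the RC 4ss embryos. The fitted log2 fold change was 4.86 (SE 0.34, adjusted p = 3.85e-13), with the spread shared over all 17 groups. The call of sox10 was lost when limma was fitted to the 5 embryos alone. Cichlids carry a pair of sox10 paralogs, and the names used here do not say which of them this row is. erbb3b (ENSACLG00000006083), a neuregulin receptor needed for crest-derived glia and pigment stem cells, had 609, 749 and 608 normalized counts in the RC 10ss embryos, against 24.4 and 38.8 in the RC 4ss embryos (log2 fold change 4.36, SE 0.38, adjusted p = 1.26e-10). For both genes the lowest RC 10ss embryo was far above the highest RC 4ss embryo.

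Other genes known from crest cells were also called higher. The chemokine receptor gene cxcr4a had 84.9, 60.1 and 47.8 normalized counts in the RC 10ss embryos, against 22.2 and 17.6 in the RC 4ss embryos (log2 fold change 1.61, SE 0.34, adjusted p = 0.00101). ret, the receptor of enteric crest cells for glial-derived growth factors, had 179, 284 and 185 normalized counts in the RC 10ss embryos, against 96.4 and 96.9 in the RC 4ss embryos (log2 fold change 1.12, SE 0.32, adjusted p = 0.0178). The stages did not overlap for either gene. The call of ret was lost without RC 10ss replicate 2 or either RC 4ss embryo and under quantile normalization. ednrab, an endothelin receptor of cranial crest, had 571, 24.8 and 244 normalized counts in the RC 10ss embryos, against 8.86 and 12.3 in the RC 4ss embryos (log2 fold change 3.74, SE 0.86, adjusted p = 0.00232). Its RC 10ss embryos spanned a wide range, and replicate 2 lay only a little above the RC 4ss embryos. pax7a, a transcription factor of dorsal somite and of yellow pigment cell precursors, had 142, 49.6 and 131 normalized counts in the RC 10ss embryos, against 23.3 and 18.5 in the RC 4ss embryos (log2 fold change 2.18, SE 0.36, adjusted p = 2.53e-05).

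Among early specifiers of the crest, tfap2a was called lower and the others named here were not called. tfap2a (ENSACLG00000020157), a transcription factor of the neural plate border and surface ectoderm, fell, with 3793, 2986 and 3001 normalized counts in the RC 10ss embryos, against 5255 and 7039 in the RC 4ss embryos (log2 fold change -0.91, SE 0.20, adjusted p = 0.00152), and the call was lost without RC 4ss replicate 3. foxd3, which acts upstream of sox10 in zebrafish, had 541, 2489.8 and 606 normalized counts in the RC 10ss embryos, against 551 and 1181 in the RC 4ss embryos, so the stages overlapped and the difference was not called (log2 fold change 0.21, adjusted p = 0.852, 95% interval -0.66 to 1.09). The high value is that of replicate 2. sox9b, a crest and cartilage transcription factor, had 1218, 3205 and 1338 normalized counts in the RC 10ss embryos, against 1316 and 2086 in the RC 4ss embryos (log2 fold change 0.07, adjusted p = 0.941). pax3a, which marks the plate border and dorsal somite, had 1079.7, 1732 and 1412 normalized counts in the RC 10ss embryos, against 897 and 1166 in the RC 4ss embryos (log2 fold change 0.43, adjusted p = 0.323). prdm1a, a border specifier that also acts in slow muscle, had 736, 1129 and 786 normalized counts in the RC 10ss embryos, against 1356 and 1192 in the RC 4ss embryos (log2 fold change -0.55, adjusted p = 0.223). Neither was called. tfap2c, a paralog of tfap2a, had 2129, 387 and 1116 normalized counts in the RC 10ss embryos, against 2024 and 2601 in the RC 4ss embryos (log2 fold change -1.24, adjusted p = 0.149). It was called lower when RC 10ss replicate 1 was left out, and the fit without group weights also called it.

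sema3fa (ENSACLG00000013438), a secreted semaphorin that repels migrating crest cells and axons, was lower at RC 10ss, with 4109.9, 754 and 1205 normalized counts in the RC 10ss embryos, against 4562 and 6046 in the RC 4ss embryos (log2 fold change -1.76, SE 0.34, adjusted p = 0.000279). The stages did not overlap, although RC 10ss replicate 1 was close to the RC 4ss embryos. In all, the list of crest specification and migration genes had 7 members higher, 2 lower and 12 not called among 21 tested, against 8.34% higher and 1.88% lower over all genes tested, and its median log2 fold change was 0.21. Without RC 10ss replicate 2, 6 were higher and 3 lower. The neural crest list of the study's candidate table, which overlaps with it, had 7 of 45 members higher and 4 lower, with a median of 0.13, against the same shares.

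**Figure D1:**
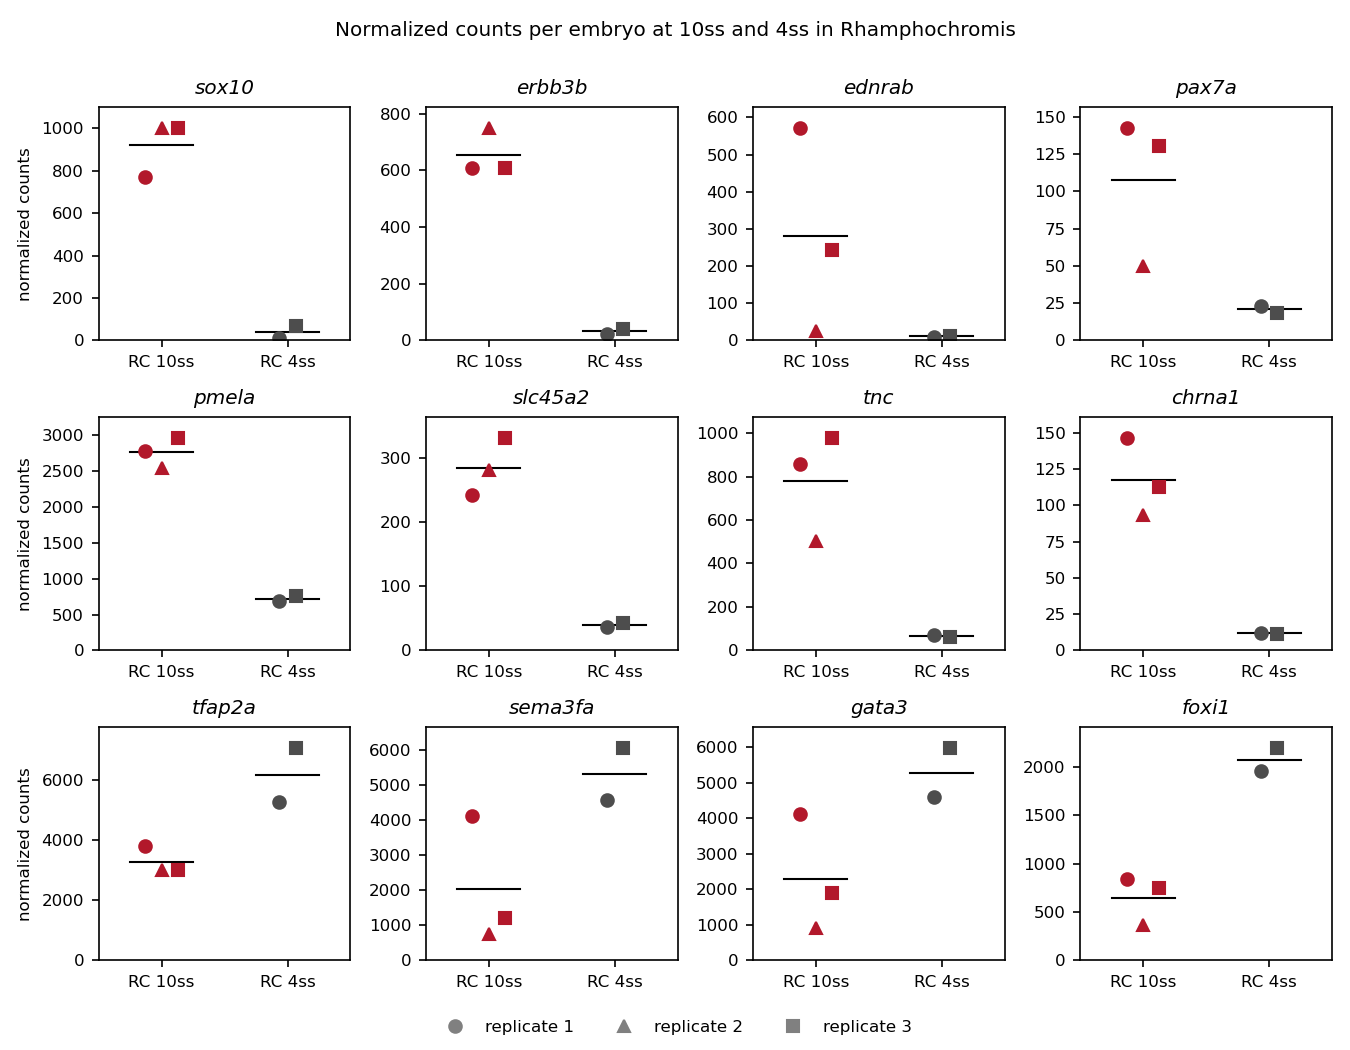
Normalized counts (vertical axes, linear, from 0) of 12 genes in each RC 10ss embryo (red, left) and each RC 4ss embryo (grey, right); the marker gives the replicate number and the black line the mean. The upper 8 genes were higher at RC 10ss with no overlap, the lower 4 were lower with no overlap, and replicate 1 of RC 10ss was the highest of its stage for sema3fa (4109.9 counts) and gata3 (4122 counts).

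Genes of melanin synthesis were already counted at 4ss and several rose by 10ss. pmela, a fibril protein of the melanosome, had 2777, 2547 and 2955 normalized counts in the RC 10ss embryos, against 683 and 755 in the RC 4ss embryos (log2 fold change 1.94, SE 0.40, adjusted p = 0.000706). Its paralog pmelb had 299, 271 and 349 normalized counts in the RC 10ss embryos, against 48.8 and 62.6 in the RC 4ss embryos (log2 fold change 2.44, SE 0.59, adjusted p = 0.00417), and the call was lost without RC 4ss replicate 1. The transporter gene slc45a2, needed for melanosome pH and melanin content, had 243, 281 and 331 normalized counts in the RC 10ss embryos, against 36.6 and 42.3 in the RC 4ss embryos (log2 fold change 2.81, SE 0.56, adjusted p = 0.000487). In each of these 3 genes the lowest RC 10ss embryo stood more than 3-fold above the highest RC 4ss embryo.

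The enzyme genes tyr and dct did not pass the threshold. tyr, tyrosinase, had 469.7, 651 and 562 normalized counts in the RC 10ss embryos, against 288 and 317 in the RC 4ss embryos (log2 fold change 0.88, adjusted p = 0.342, 95% interval -0.20 to 1.96). dct, dopachrome tautomerase, had 641, 645 and 604 normalized counts in the RC 10ss embryos, against 326 and 333 in the RC 4ss embryos (log2 fold change 0.93, adjusted p = 0.474, 95% interval -0.48 to 2.35). The stages did not overlap in either gene, as in 38% of all genes tested, and the intervals reach from a fall to more than a 2-fold rise. dct was called when limma was fitted to the 5 embryos alone. mitfa, the melanocyte master regulator, had 9.21, 10.5 and 15.5 normalized counts in the RC 10ss embryos, against 2.22 and 0.881 in the RC 4ss embryos, from 32 and 3 reads, a ratio of 7.76 with a 95% counting interval of 2.43 to 39.6 (log2 fold change 2.34, adjusted p = 0.092). DESeq2 and the fit without group weights called mitfa. gch2 had 6991, 197 and 1201 normalized counts in the RC 10ss embryos, against 5814 and 3646 in the RC 4ss embryos (log2 fold change -1.96, adjusted p = 0.447), and the stages overlapped. Of 15 pigment cell genes tested, 5 were higher and none lower in the limma fit, with a median of 0.93, against 8.34% higher and 1.88% lower over all genes tested, and 5 were higher without RC 10ss replicate 2. Against the same shares, 12 of 56 in the study's pigmentation list were higher and 1 was lower, with a median of 0.26. anxa6, a calcium-dependent membrane-binding protein placed in that list, rose with 894, 1133 and 882 normalized counts in the RC 10ss embryos, against 135 and 128 in the RC 4ss embryos (log2 fold change 2.86, SE 0.36, adjusted p = 3.04e-07).

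Of 4 genes in the list of otic and cranial placodes and eye, foxi1 and gata3 were called lower, aldh1a2 higher and fgf3 was not called. foxi1, a determinant of otic placode and ionocytes, had 839, 368 and 745 normalized counts in the RC 10ss embryos, against 1959 and 2195 in the RC 4ss embryos (log2 fold change -1.76, SE 0.27, adjusted p = 7.30e-06). ovol1a, a zinc-finger repressor of epithelia, had 345, 77.3 and 145 normalized counts in the RC 10ss embryos, against 967 and 575 in the RC 4ss embryos (log2 fold change -2.24, SE 0.49, adjusted p = 0.0012). gata3, a transcription factor of ventral ectoderm and ear, had 4122, 901 and 1893 normalized counts in the RC 10ss embryos, against 4598 and 5972 in the RC 4ss embryos (log2 fold change -1.45, SE 0.45, adjusted p = 0.0279). Every RC 10ss embryo was below both RC 4ss embryos, and in each gene replicate 2 was the lowest and replicate 1 the highest of RC 10ss. The call of gata3 was lost without any 1 of RC 10ss replicates 2 and 3 or of the RC 4ss embryos, while that of foxi1 held in each fit that left an embryo out. macc1, which regulates hepatocyte growth factor receptor signalling in human cells, had 239, 39.1 and 149 normalized counts in the RC 10ss embryos, against 552 and 365 in the RC 4ss embryos (log2 fold change -1.99, SE 0.55, adjusted p = 0.0122), and the call was lost without RC 10ss replicate 2 or RC 4ss replicate 1.

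2 further genes were called lower although their stages overlapped. dlx1a, a homeobox gene of forebrain and pharyngeal arches, had 480.0, 2.86 and 16.8 normalized counts in the RC 10ss embryos, against 122 and 501 in the RC 4ss embryos (log2 fold change -2.95, SE 0.93, adjusted p = 0.0321). dhrs9, a retinol dehydrogenase, had 345, 23.8 and 102 normalized counts in the RC 10ss embryos, against 284 and 639 in the RC 4ss embryos (log2 fold change -2.15, SE 0.69, adjusted p = 0.0351). In both, RC 10ss replicate 1 was as high as an RC 4ss embryo, and neither was called without RC 10ss replicate 2 or 3, without RC 4ss replicate 3, or by edgeR. The call of dlx1a was also lost by DESeq2 and with a pseudocount of 10, and that of dhrs9 with the replicate block. Among markers of epidermis and ionocytes, 5 genes were tested, and 1 was lower (ovol1a) and none higher in the limma fit, with a median log2 fold change of 0.01 and 3 of the 5 above 0, against 8.34% called higher and 1.88% lower over all genes. Their summed level was 2502 to 4102 normalized counts at RC 10ss and 4637 to 5030 at RC 4ss, and it was lowest in replicate 2. The part of surface ectoderm content in the lower calls was not tested. Other markers of cell types were few by name: of the cardiac list 4 genes were tested and none called, with summed levels of 1795 to 2531 at RC 10ss and 1554 to 3792 at RC 4ss. Of the 3 genes of the endoderm and liver list, only shha was called higher, and it is also a notochord and floor plate gene. The endoderm genes gata5 and sox32 had log2 fold changes below 0 and were not called, and the list median was -0.77.

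Signalling genes moved in both directions. shha, the Hedgehog ligand of notochord and floor plate, had 772, 1180.0 and 1073 normalized counts in the RC 10ss embryos, against 515 and 497 in the RC 4ss embryos (log2 fold change 0.97, SE 0.24, adjusted p = 0.00401). The Bmp antagonist gene nog1 had 523, 802 and 557 normalized counts in the RC 10ss embryos, against 345 and 197 in the RC 4ss embryos (log2 fold change 1.24, SE 0.28, adjusted p = 0.00212). The ligand gene bmp2b had 370.5, 288 and 362 normalized counts in the RC 10ss embryos, against 1158 and 925 in the RC 4ss embryos (log2 fold change -1.61, SE 0.52, adjusted p = 0.0389). Higher nog1 and lower bmp2b were thus found in the same embryos, with no overlap of stages in either. The call of nog1 was lost without RC 4ss replicate 3. The call of bmp2b was lost in each fit that left out RC 10ss replicate 2 or 3 or an RC 4ss embryo, and under quantile normalization. tgfb3, a ligand of palate and muscle connective tissue, had 123, 146 and 137 normalized counts in the RC 10ss embryos, against 53.2 and 45.8 in the RC 4ss embryos (log2 fold change 1.43, SE 0.22, adjusted p = 1.26e-05). Of 8 genes of Bmp and Tgf-beta signalling tested, 2 were higher and 1 lower, against 8.34% and 1.88% of all genes, and the lower one was not called without RC 10ss replicate 2.

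On the Wnt side, the ligand gene wnt4 had 636, 564 and 762 normalized counts in the RC 10ss embryos, against 211 and 344 in the RC 4ss embryos (log2 fold change 1.27, SE 0.28, adjusted p = 0.00139). frzb, a secreted Wnt antagonist of cartilage precursors, had 276, 279 and 289.7 normalized counts in the RC 10ss embryos, against 151 and 174 in the RC 4ss embryos (log2 fold change 0.79, SE 0.21, adjusted p = 0.00957). Neither call held without RC 4ss replicate 1, and that of frzb was also lost under quantile normalization. lef1, a nuclear effector of the pathway, was not called (log2 fold change 0.16, adjusted p = 0.869). sulf1 and sulf2a, sulfatases that trim heparan sulfate and so tune ligand binding, were both higher, with log2 fold changes of 0.91 (adjusted p = 0.00507) and 1.2 (adjusted p = 0.000391), and the call of sulf1 was lost without RC 4ss replicate 3. Of 5 Wnt genes tested 2 were higher and none lower in the limma fit, against 8.34% and 1.88% of all genes, also without RC 10ss replicate 2.

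aldh1a2, the main retinoic acid-producing enzyme of somites, had 2536, 5202 and 2846 normalized counts in the RC 10ss embryos, against 1836 and 968 in the RC 4ss embryos (log2 fold change 1.33, SE 0.30, adjusted p = 0.00205). The stages did not overlap, and the highest embryo was RC 10ss replicate 2. The call was lost without RC 4ss replicate 3. meis3, a hindbrain homeobox gene, had 5808, 8145 and 6684 normalized counts in the RC 10ss embryos, against 3437 and 3545 in the RC 4ss embryos (log2 fold change 0.96, SE 0.22, adjusted p = 0.00172). The fibroblast growth factor genes were not called. fgf8a, expressed in tail bud and midbrain-hindbrain border, had 161, 1004 and 568 normalized counts in the RC 10ss embryos, against 865 and 675 in the RC 4ss embryos (log2 fold change -0.76, adjusted p = 0.395). fgf3, of hindbrain and pharynx, had 162, 299 and 222 normalized counts in the RC 10ss embryos, against 127 and 174 in the RC 4ss embryos (log2 fold change 0.56, adjusted p = 0.484). For fgf8a the RC 10ss embryos alone spanned from 161 to 1004 counts, more than the distance between the stage means.

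Genes of the extracellular matrix changed in both directions. fn1a (ENSACLG00000008496), fibronectin, which lines somite borders and carries the cell movements of gastrulation, was lower, with 13066, 18843 and 12518 normalized counts in the RC 10ss embryos, against 41913 and 35411 in the RC 4ss embryos (log2 fold change -1.40, SE 0.41, adjusted p = 0.0194). tnc, the anti-adhesive matrix protein tenascin C, had 859.6, 502 and 976 normalized counts in the RC 10ss embryos, against 72.0 and 62.6 in the RC 4ss embryos (log2 fold change 3.46, SE 0.43, adjusted p = 2.16e-07). sparc, a collagen-binding protein of basement membranes, had 11105, 8628 and 9175 normalized counts in the RC 10ss embryos, against 2833 and 4614 in the RC 4ss embryos (log2 fold change 1.41, SE 0.21, adjusted p = 6.10e-06). The matrix proteases mmp14b (log2 fold change 1.59, adjusted p = 1.80e-07) and mmp17b (log2 fold change 3.57, adjusted p = 2.39e-09) were also higher, and dcn, the small proteoglycan decorin, had 464, 194 and 573 normalized counts in the RC 10ss embryos, against 51.0 and 17.6 in the RC 4ss embryos (log2 fold change 3.58, SE 0.43, adjusted p = 9.19e-08). None of these 6 genes had overlapping stages. The call of fn1a was lost without RC 10ss replicate 3 or either RC 4ss embryo, and those of tnc, sparc, mmp14b, mmp17b and dcn held in every fit that left an embryo out. Of 6 collagen and matrix genes tested, 3 were higher and 1 lower, against 8.34% and 1.88% of all genes, with a median of 1.5, also without RC 10ss replicate 2.

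Among muscle and somite genes, chrna1, rbm24b and nkx3-2 were called higher, while myf5 and meox1 were not called. chrna1, a subunit of the muscle acetylcholine receptor, had 146, 93.5 and 112 normalized counts in the RC 10ss embryos, against 12.2 and 11.5 in the RC 4ss embryos (log2 fold change 3.18, SE 0.35, adjusted p = 2.02e-08). rbm24b, an RNA-binding regulator of muscle splicing, had 351, 195 and 425 normalized counts in the RC 10ss embryos, against 68.7 and 82.0 in the RC 4ss embryos (log2 fold change 2.02, SE 0.37, adjusted p = 0.000121). nkx3-2, a homeobox gene of sclerotome and jaw joint, had 123, 133 and 156 normalized counts in the RC 10ss embryos, against 55.4 and 54.6 in the RC 4ss embryos (log2 fold change 1.30, SE 0.39, adjusted p = 0.0228), and its call was lost without RC 10ss replicate 3 or either RC 4ss embryo and under quantile normalization. The muscle determination gene myf5 was not called, with 1607, 2874 and 2203 normalized counts in the RC 10ss embryos, against 1454 and 716 in the RC 4ss embryos (log2 fold change 1.09, adjusted p = 0.0731, 95% interval 0.28 to 1.89). The same held for meox1, a somite homeobox gene, with 1717, 2378 and 2127 normalized counts in the RC 10ss embryos, against 1403 and 917 in the RC 4ss embryos (log2 fold change 0.86, adjusted p = 0.0712). For both, the stages did not overlap, and the fits with DESeq2, edgeR and without group weights called them. Of 7 somite and dermomyotome genes tested, 4 were higher and none lower in the limma fit, against 8.34% and 1.88% of all genes, with a median of 1.30. The counts were equal without RC 10ss replicate 2, but the calls of aldh1a2 and nkx3-2 depended on other embryos, as given above. These 4 were nkx3-2 and the genes aldh1a2, cxcr4a and pax7a described above, while chrna1 and rbm24b are in other lists. pax7a is also counted in the crest and pigment cell lists, so these counts are not separate.

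Groups of unnamed genes could be followed through the Gene Ontology (GO) terms that the study lists with gene identifiers. All members of these lists had been picked there as genes that differ between the species, and most lists hold only part of their term, so they are described by counts alone. Sarcomere organization, whose list is whole, had 5 of 13 tested members higher and none lower in the limma fit, with a median log2 fold change of 1.43, against 8.34% and 1.88% of all genes. In the list of myofibril assembly, 7 of 20 were higher and none lower, with a median of 0.94. The summed level of the 14 sarcomere genes was 7881 to 9755 normalized counts at RC 10ss and 6374 to 7117 at RC 4ss. These counts were unchanged without RC 10ss replicate 2, with 5 and 7 members higher.

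The counts of the next lists stand against 8.34% higher and 1.88% lower over all genes tested. Cartilage development had 7 of 21 members higher and 1 lower, and extracellular matrix organization 6 of 21 higher and none lower. For the neural crest the directions were mixed, with 5 higher and 5 lower among 29 members of neural crest cell development and 5 higher and 3 lower among 20 of neural crest cell migration. Hindbrain development had 8 higher and 4 lower of 37, and anterior/posterior pattern specification 8 higher and 1 lower of 37. Somitogenesis, of whose 36 listed genes 19 could be read, had 2 higher and 1 lower, and segmentation had 3 higher and 1 lower of 29. The summed level of the somitogenesis members was 32027 to 48075 normalized counts at RC 10ss and 51689.9 to 64028 at RC 4ss. Their member fn1a alone had 12518 to 18843 normalized counts at RC 10ss and 35411 to 41913 at RC 4ss. The median log2 fold change of the somitogenesis members was 0.20, and 11 of the 19 were above 0. In the lists of nucleosome assembly (16 tested), translation (21) and neurotransmitter transport (9), no member was called by limma. Without RC 10ss replicate 2, 4 in place of 1 of the 28 members of integrin-mediated signalling were higher, and in the other GO lists no count moved by more than 2. The study's list of cartilage and craniofacial skeletal genes had 20 of 105 members higher and 8 lower, with a median of 0.01, and without RC 10ss replicate 2 the counts were 21 and 5.

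**Figure D2:**
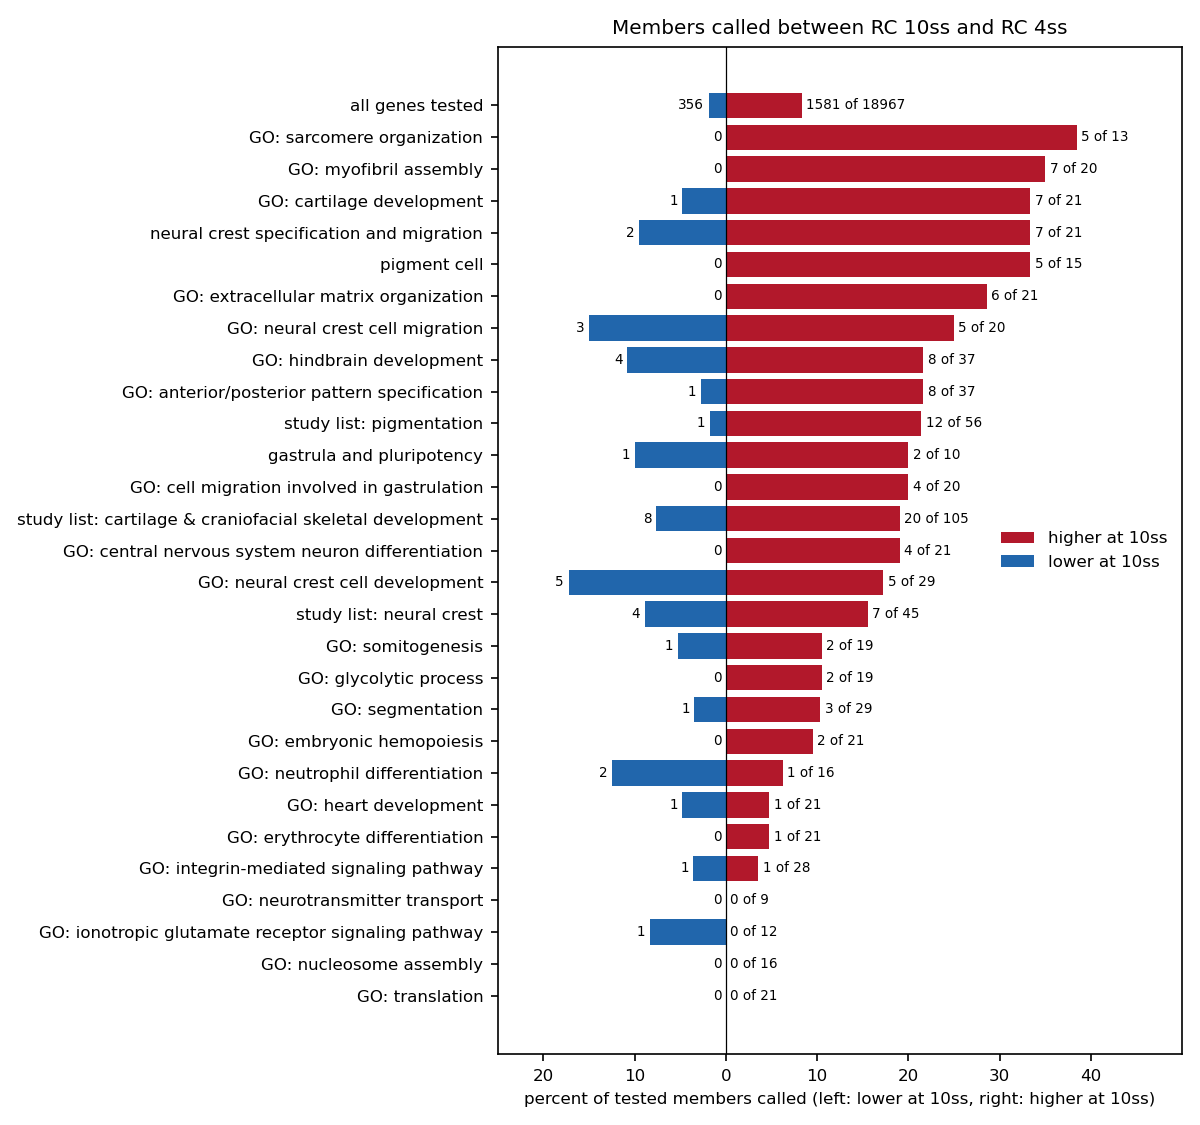
Share of the tested members of each list (rows; 9 or more members tested) called higher (red, to the right, with the count of members tested) or lower (blue, to the left) at RC 10ss than at RC 4ss, in percent, with all genes tested in the top row. Sarcomere organization had the largest share higher (5 of 13) and neural crest cell development the largest share lower (5 of 29), and lists share genes.

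Some called genes have not been described yet. disc1, a scaffold protein that controls crest cell migration in zebrafish, had 103, 88.7 and 106 normalized counts in the RC 10ss embryos, against 22.2 and 33.5 in the RC 4ss embryos (log2 fold change 1.82, SE 0.30, adjusted p = 2.80e-05). It is already counted among the higher members of the study's neural crest list. eno1a, a glycolytic enolase, was the one named glycolysis gene and had 1154, 756 and 830.2 normalized counts in the RC 10ss embryos, against 351 and 449 in the RC 4ss embryos (log2 fold change 1.17, SE 0.24, adjusted p = 0.000679). Among genes that fell, enpp2, which makes the lipid signal lysophosphatidic acid, had 155, 212 and 129 normalized counts in the RC 10ss embryos, against 371 and 476 in the RC 4ss embryos (log2 fold change -1.37, SE 0.46, adjusted p = 0.0492), with no overlap of stages. marcksl1b, a regulator of the cell cortex, had 10788, 4709 and 6627 normalized counts in the RC 10ss embryos, against 11968 and 19002 in the RC 4ss embryos (log2 fold change -1.12, SE 0.26, adjusted p = 0.00241). The call of enpp2 was lost without RC 10ss replicate 1 or 3, without either RC 4ss embryo, with a pseudocount of 0.1 and under quantile normalization, and that of marcksl1b without RC 4ss replicate 3.

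Some genes with no name at hand changed more than any named one. The examples had no overlap of stages and at least 100 normalized counts in the higher stage. ENSACLG00000017825 had 746, 272 and 685 normalized counts in the RC 10ss embryos, against 1.11 and 0.881 in the RC 4ss embryos, from 1544 reads at RC 10ss and 2 at RC 4ss, and the ratio of 562 has a 95% counting interval of 155 to 4644. ENSACLG00000026765 had 3167, 2289 and 4731 normalized counts in the RC 10ss embryos, against 36.6 and 7.93 in the RC 4ss embryos (log2 fold change 7.47, SE 0.57, adjusted p = 3.41e-12). The largest falls under these limits were those of ENSACLG00000027281, with 44.0, 0.954 and 0 normalized counts in the RC 10ss embryos, against 234 and 81.1 in the RC 4ss embryos (log2 fold change -4.96, SE 0.95, adjusted p = 0.000245), and of ENSACLG00000027110, with 8.19, 1.91 and 14.2 normalized counts in the RC 10ss embryos, against 101 and 138 in the RC 4ss embryos (log2 fold change -4.01, SE 1.02, adjusted p = 0.00648), whose call was lost without RC 10ss replicate 2 or RC 4ss replicate 3. For ENSACLG00000027281 RC 10ss replicate 1 accounted for nearly all of the counts left at that stage.

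Several genes that the study discusses were not called. dicer1, the nuclease that makes microRNAs, had 1131, 988 and 1066 normalized counts in the RC 10ss embryos, against 1049 and 1056 in the RC 4ss embryos (log2 fold change 0.01, adjusted p = 0.993, 95% interval -0.43 to 0.45). cnbpa, a nucleic acid-binding protein of forebrain and crest, had 17647, 19416 and 20952 normalized counts in the RC 10ss embryos, against 18274 and 19733 in the RC 4ss embryos (log2 fold change 0.02, adjusted p = 0.96, 95% interval -0.24 to 0.29). chsy1, a chondroitin synthase, had 1541, 1628 and 1309.9 normalized counts in the RC 10ss embryos, against 1669.8 and 1665 in the RC 4ss embryos (log2 fold change -0.17, adjusted p = 0.743, 95% interval -0.60 to 0.27). These intervals do not reach a 2-fold change in either direction. aldh1l1, a folate enzyme, had 915, 172 and 575 normalized counts in the RC 10ss embryos, against 144 and 318 in the RC 4ss embryos (log2 fold change 1.06, adjusted p = 0.23), with overlapping stages. It was called higher when RC 10ss replicate 2 was left out, and DESeq2 also called it. tspan37, a tetraspanin, had 98.2, 2.86 and 41.4 normalized counts in the RC 10ss embryos, against 29.9 and 37.9 in the RC 4ss embryos (log2 fold change -0.45, adjusted p = 0.873). kcnk18, a potassium channel, was at 0 to 2.59 normalized counts in the 5 embryos, which is too few reads for a fold change. noto, the notochord homeobox gene, had 199, 1086 and 600.0 normalized counts in the RC 10ss embryos, against 855 and 304 in the RC 4ss embryos, with overlapping stages, and the endoderm genes gata5 and sox32 had log2 fold changes of -0.77 and -2.16 (adjusted p = 0.393 and 0.197). The stages of sox32 did not overlap, as in 38% of all genes tested, and it was called by DESeq2 and edgeR. nkx2.5, of heart precursors, had 99.3, 140.2 and 169 normalized counts in the RC 10ss embryos, against 26.6 and 84.6 in the RC 4ss embryos (log2 fold change 1.46, adjusted p = 0.398).

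The later RC stages show how the interval compares with what follows. Stage means of sox10 at 4, 10, 15, 18, 20, 22, 26, 30 and 37ss were 41.0, 923, 1034, 817, 862, 534, 533, 508 and 631 normalized counts, so the highest mean was at 15ss and most of the rise fell between 4 and 10ss. For fn1a they were 38662, 14809, 10329, 10404, 7892, 9059, 9517, 11039.5 and 11027. tnc, in contrast, went on to higher levels after 10ss, with 67.3, 779, 1641, 2045, 3247, 3889, 4494, 4764 and 3503. The means of pmela were 719, 2759.7, 3197, 2326, 1906, 1466, 1403, 1824 and 1089, highest at 15ss and lower afterwards. The later values are given as description and were not tested.

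**Figure D3:**
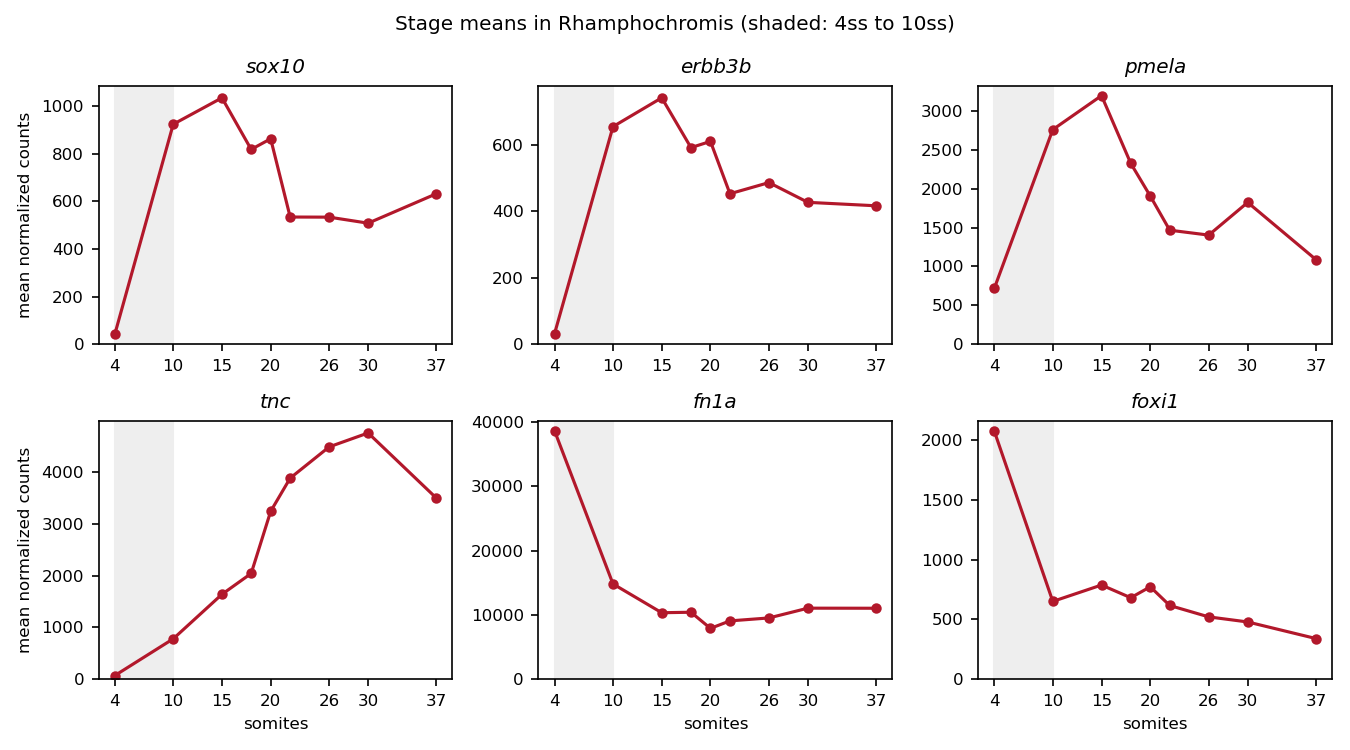
Mean normalized counts (vertical axes, linear, from 0) of 6 genes at the 9 stages of RC against the number of somites, with the interval from 4ss to 10ss shaded; each point is the mean of 3 embryos, or of 2 at 4ss. sox10, erbb3b and pmela had their highest means at 15ss and tnc at 30ss (4764 counts), while fn1a (38662 counts) and foxi1 (2077 counts) were highest at 4ss.

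The same interval was then compared with that of AC, to find where RC changed more or less. In AC 4512 of the 18967 genes (23.8%) were called between 10ss and 4ss, 3288 higher (17.3%) and 1224 lower (6.45%). Of the 1937 genes called in RC, 1839 (94.9%) had the same sign of change in AC, against 68.4% of all genes tested, and 1379 were also called there in the same direction, which is 71.2% of the RC calls and 30.6% of the AC calls. By direction these were 1267 of the 1581 genes higher and 112 of the 356 genes lower in RC. Only 3 genes were called in opposite directions. Across all genes tested, Pearson's r between the changes was 0.608 and Spearman's rho 0.521, with no embryo shared, although genes are not independent and both species share 1 reference genome. The slope of the RC change on the AC change through the origin was 0.461. Error in the AC changes pulls such a slope toward 0 even where the courses are equal. AC 4ss had the largest relative variance of all groups (2.69), and the size of this pull was not tested.

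The difference of the log2 changes, RC minus AC, was called for 498 genes (2.63%), with 101 genes (0.533%) where RC rose more or fell less on that scale and 397 genes (2.09%) where it rose less or fell more. The number was 237 without RC 10ss replicate 2, 983 without RC 10ss replicate 1, 325 without AC 4ss replicate 3, 328 without AC 10ss replicate 3 and 133 under quantile normalization. The split moved as well, to 735 genes above and 1318 below AC by DESeq2, 646 and 1357 without group weights, 507 and 1150 by edgeR, 222 and 429 without AC 10ss replicate 2, and 256 and 727 without RC 10ss replicate 1. Among the 397, 385 were called higher in AC and 119 in RC, with median log2 fold changes of 0.44 in RC and 2.71 in AC. Their median level was 219 normalized counts at RC 10ss and 130 at RC 4ss, and 199 at AC 10ss and 23.1 at AC 4ss. At 4ss 396 of them had a higher mean in RC than in AC, a comparison that enters the difference itself and is no separate test. Among the 101, RC changed by a median of 0.21 and AC by -0.92, and 68 were called lower in AC.

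sox10 was the named gene with the largest such difference (difference -4.74, SE 0.49, adjusted p = 5.07e-08). In AC it had 592, 914 and 865 normalized counts in the AC 10ss embryos, against 0, 0 and 0 in the AC 4ss embryos. Against a floor of 3 reads over the AC 4ss embryos, the AC 10ss level was at least 697-fold higher, and the fitted log2 fold change of 4.86 in RC stood against 9.60 in AC, which depends on the pseudocount. erbb3b (difference -3.13, SE 0.55, adjusted p = 0.000658) and pmelb (difference -4.02, SE 0.85, adjusted p = 0.00552) were the next genes with smaller log2 rises in RC, with AC changes of 7.49 and 6.46. The AC 4ss embryos had 2.83, 5.19 and 0 normalized counts of erbb3b and 0, 10.4 and 0 of pmelb. Means at 4ss and 10ss were 31.6 and 655 in RC, against 2.67 and 539 in AC, for erbb3b. For pmelb they were 55.7 and 306 in RC, against 3.46 and 208 in AC. Both genes thus rose less in RC as a ratio over a low AC 4ss level, and not in counts. FAT2, an atypical cadherin, had 1640.5, 1024 and 1484 normalized counts in the RC 10ss embryos, against 872 and 1138 in the RC 4ss embryos, and 1092, 1319 and 1115 normalized counts in the AC 10ss embryos, against 87.7, 134 and 93.4 in the AC 4ss embryos (difference -3.05, SE 0.57, adjusted p = 0.00163). nkx3-2 (difference -1.93, SE 0.55, adjusted p = 0.0486), disc1 (difference -1.51, SE 0.43, adjusted p = 0.0457), nr2f2 (difference -1.18, SE 0.33, adjusted p = 0.0439) and tapt1b (difference -0.99, SE 0.23, adjusted p = 0.0115) were also below AC. nr2f2 encodes a nuclear receptor of veins.

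In the other direction, ret was called higher in RC and not in AC, and the changes differed (difference 1.64, SE 0.46, adjusted p = 0.0431). In AC it had 138, 215 and 152 normalized counts in the AC 10ss embryos, against 158, 238 and 356 in the AC 4ss embryos. meis3 likewise differed (difference 1.2, SE 0.31, adjusted p = 0.0242). itga5 (difference 1.44, SE 0.28, adjusted p = 0.00257), the fibronectin receptor subunit of somite borders, had 1689, 2044 and 1572 normalized counts in the RC 10ss embryos, against 2360.1 and 1777 in the RC 4ss embryos, and 1567, 1601 and 1408 normalized counts in the AC 10ss embryos, against 5347, 4024 and 5147 in the AC 4ss embryos. bmp1a, a protease that cleaves the Bmp antagonist chordin, also differed (difference 0.99, SE 0.28, adjusted p = 0.046). The differences of itga5, sox10, erbb3b, pmelb and FAT2 were called in every fit that left an embryo out, but those of erbb3b and pmelb were lost with a pseudocount of 10. Those of ret, meis3, bmp1a, nkx3-2, disc1, nr2f2 and tapt1b were each lost in 1 or more fits that left an embryo out. With only the 11 RC and AC embryos at 4ss and 10ss fitted by limma, the differences of itga5, sox10, erbb3b and pmelb were lost as well. By contrast, foxi1, tnc and cxcr4a changed in RC by -1.76, 3.46 and 1.61 and in AC by -1.80, 3.66 and 1.62, and no difference was called for them.

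**Figure D4:**
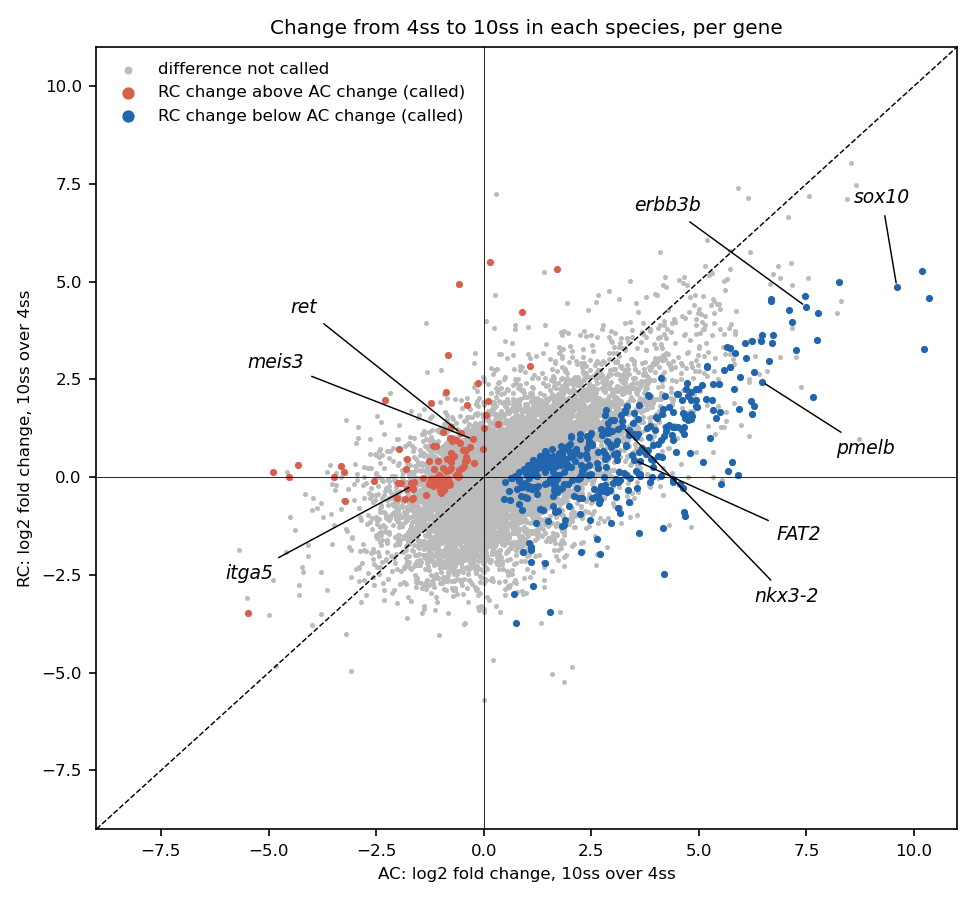
Log2 fold change of 10ss over 4ss in RC (vertical axis) and in AC (horizontal axis) for each of the 18967 genes tested; red and blue points are genes whose change differed between the species by limma, and the dashed line marks equal change. Below the line lie the 397 genes with a smaller rise or larger fall in RC, sox10 and erbb3b among them, and above it the 101 genes such as ret and meis3.

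A single number sums up where the RC embryos stood on the course taken by AC. Each embryo was projected on the line from the mean of AC 4ss (position 0) to the mean of AC 10ss (position 1) over all 18967 genes. RC 10ss embryos were at 0.989, 0.782 and 0.976, against 0.457 and 0.453 for the RC 4ss embryos. The RC stages did not overlap, and RC 10ss replicate 2 was the lowest of its stage. AC 10ss embryos lay between 0.988 and 1.02 and AC 4ss embryos between -0.0441 and 0.0700, which the axis itself sets. RC 15ss embryos were at 1.13, 1.12 and 0.951. The position is a description with no test, and genes that differ between the species at both stages can shift it. By construction, the distance between the RC stage means on this axis is the slope of 0.461 given above. It is no separate result, and the same error in the AC changes enters it.

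**Figure D5:**
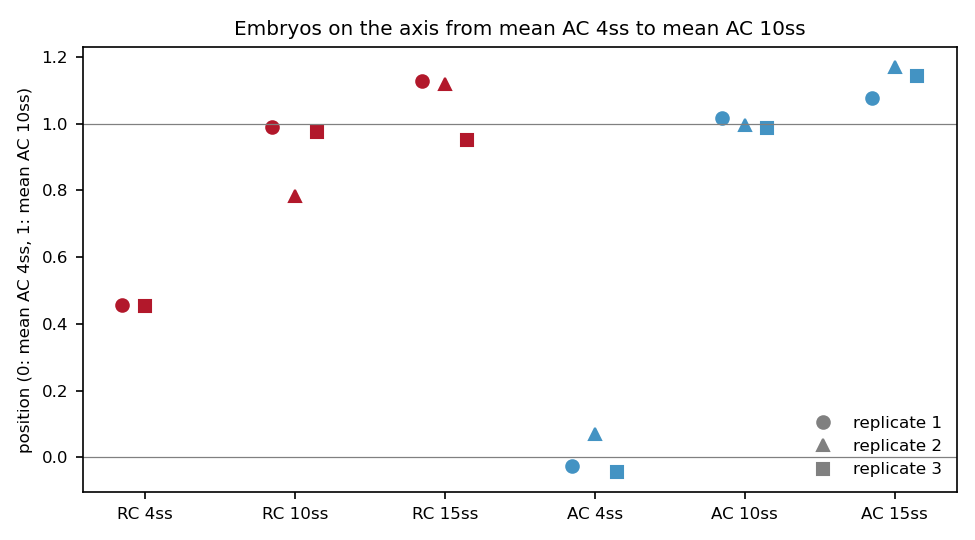
Position of each embryo (markers by replicate number; red RC, blue AC) on the axis from mean AC 4ss (0) to mean AC 10ss (1), over 18967 genes. RC 4ss embryos lie at 0.457 and 0.453, RC 10ss embryos between 0.782 and 0.989, and the AC 4ss and 10ss embryos define the axis.

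Of 855 lncRNAs tested in a table of their own, 30 (3.51%) were higher and 9 (1.05%) lower at RC 10ss, 4.56% in all. Their median log2 fold change was -0.15, and 0 under quantile normalization. Without RC 10ss replicate 2, 27 were higher and 5 lower, and without RC 4ss replicate 1, 16 were higher and 2 lower. The excess of higher calls depended on the setting, with 25 higher and 22 lower without RC 10ss replicate 1, 27 higher and 31 lower with a pseudocount of 10, and 3 higher and 5 lower with the 5 embryos fitted alone by limma. DESeq2 on those 5 called 14 higher and 0 lower. LOC113020344 had 68.7, 14.4 and 77.5 normalized counts in the RC 10ss embryos, against 0 and 1.76 in the RC 4ss embryos, from 142 and 2 reads, a ratio of 51.8 with a 95% counting interval of 14.1 to 432. LOC113037230 had 17.4, 27.9 and 25.8 normalized counts in the RC 10ss embryos, against 0 and 0.881 in the RC 4ss embryos, from 66 reads and 1 read. LOC113024043 was not counted at all in RC 4ss embryos and had 27.7, 31.7 and 32.3 normalized counts in the RC 10ss embryos. Against a floor of 3 reads over the RC 4ss group it was at least 20.7-fold higher, a bound for counting error only. LOC113024043 was not called by DESeq2 or edgeR or without either RC 4ss embryo. Its means at later RC stages followed no order, with 0 normalized counts at 20ss and 30ss and 34.9 at 26ss. Whether its absence at RC 4ss belongs to the stage or to single embryos was not tested. In each of these lncRNAs RC 10ss and RC 4ss did not overlap, as in 30.6% of all lncRNAs tested.

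Among lncRNAs that fell, LOC113017954 had 50.2, 8.66 and 1.29 normalized counts in the RC 10ss embryos, against 154 and 103 in the RC 4ss embryos (log2 fold change -3.61, SE 0.86, adjusted p = 0.00673). LOC113029428 had 2.05, 4.81 and 7.75 normalized counts in the RC 10ss embryos, against 41.1 and 22.9 in the RC 4ss embryos (log2 fold change -2.56, SE 0.66, adjusted p = 0.0131), and LOC113030991 had 7.18, 1.92 and 3.88 normalized counts in the RC 10ss embryos, against 23.3 and 28.2 in the RC 4ss embryos (log2 fold change -2.45, SE 0.57, adjusted p = 0.00508). All 3 had no overlap of stages, and each lost its call in at least 1 of the fits that left an embryo out. These lncRNAs hold few reads, so their levels carry a large counting error.

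The share called was smallest among TEs. Of 1473 TE families tested, 4 (0.272%) were higher and 4 lower at RC 10ss, 0.543% in all, with a median log2 fold change of -0.06. The family rnd-6_family-5755, which is unclassified, had 126, 59.6 and 120.5 normalized counts in the RC 10ss embryos, against 15.3 and 22.5 in the RC 4ss embryos (log2 fold change 2.32, SE 0.26, adjusted p = 1.19e-07). It was the one called family with a change of more than 4-fold, and its change in AC was 2.45. The DNA transposon family rnd-1_family-305, of the hAT-Ac group, had 605, 521 and 549 normalized counts in the RC 10ss embryos, against 359 and 241 in the RC 4ss embryos (log2 fold change 0.92, SE 0.16, adjusted p = 0.000578). Both embryos of RC 4ss were below all of RC 10ss in each, while 26.3% of all families had no overlap of stages. The call of rnd-1_family-305 was lost without RC 4ss replicate 3.

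The others were closer to the threshold. rnd-4_family-649 and rnd-1_family-429, both unclassified, were higher by 0.71 and 0.62 on the log2 scale (adjusted p = 0.0472 and 0.0218). Lower families were rnd-1_family-283 (unclassified, -1.22), rnd-1_family-654 (DIRS, -1.18), and the Gypsy families rnd-4_family-278 (-0.76) and rnd-1_family-527 (-0.66), with adjusted p between 0.0168 and 0.0386. Without RC 10ss replicate 2, 3 families were called, all higher and all among these 8, and without RC 10ss replicate 1, 25 were, 22 of them lower. Without RC 4ss replicate 1, or without RC 10ss replicate 3, 2 families were called. As shares of TE reads, LTR elements took 10.7% to 11.6% at RC 10ss and 9.21% to 13.8% at RC 4ss, DNA transposons 21.8% to 24.4% and 21.8% to 25.5%, and LINEs 9.36% to 11% and 10.7% to 11.6%. The stages overlapped in all 3 classes, and for LTR elements the RC 4ss embryos lay on both sides of the RC 10ss range.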

How the data were processed

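RNA of single whole embryos, polyA-enriched and stranded, was sequenced as paired-end reads. The authors trimmed the reads (Trim Galore), used STAR to align RC and AC reads alike to the genome of A. calliptera, and counted unique reads per gene with HTSeq. They divided the counts of each embryo by its median-of-ratios size factor from DESeq2, so the deposited signal values are normalized counts, in separate tables for 28001 genes, 1664 lncRNAs and 1609 TEs. For TEs, reads that map to several places were also counted. Dividing by the value of 1 read gave whole reads for 100% of values (tolerance 0.01 reads). Across the tables, 18 columns of group means or row maxima were not used.

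Values were analysed as log2(normalized count + 1) in limma 3.58.1 (R 4.3.3) with a mean-variance trend, 17 group means over 50 embryos and 1 weight per group, each table in its own fit. The pseudocount makes fold changes of low features smaller. A feature was tested where 2 or more of the 11 embryos (RC and AC at 4ss and 10ss) reached 10 normalized counts. p-values were two-sided. On replicates the labels give a number, and the study's methods describe single embryos from 1 clutch per species. RC 4ss has 2 embryos, so the spread is largely that of other groups, whose relative variances ran from 0.524 (RC 22ss) to 2.69 (AC 4ss), with 1.5 for RC 4ss and 1.85 for RC 10ss. Alternatives were pseudocounts of 0.1 and 10, other filters and thresholds, no weights, fewer embryos, quantile normalization, a replicate block, count models on the recovered whole reads (edgeR 4.0.16 and DESeq2 1.42.0), and each embryo left out.

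Names of 236 genes came from the study's supplementary tables, and 87 of 1295 list symbols matched. No identifier of the gene table matched the reference gene table, so no sequence or coordinate is given and promoter motifs were not analysed here. The study's GO table supplied identifiers for 22 terms, with shortened lists, chosen after the files were seen. Named genes were core genes of the lists, up to 4 called members per list and direction with at least 50 normalized counts in the higher stage, the 10 largest called changes per direction with no overlap and at least 100 counts, up to 2 unnamed genes per direction, up to 8 genes per direction for the species difference, 3 lncRNAs and 5 TEs per direction with at least 20 counts, and genes the study names. Members and lists were chosen with earlier results of these data known. Counting intervals (exact binomial) and the floor of 3 reads cover counting error only.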

Additional observations from a re-analysis of the deposited data

Results flagged for a closer look

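Results were looked at again where the change in RC and the change in AC differed by limma's test of the difference itself, which was so for 498 genes. Groups of 2 or 3 embryos are too small for a check of single outlying embryos. Among the genes of the text, the change in RC was below that in AC, by the log2 values that follow, for sox10 (-4.74), pmelb (-4.02), erbb3b (-3.13), FAT2 (-3.05), nkx3-2 (-1.93), disc1 (-1.51), nr2f2 (-1.18) and tapt1b (-0.989). It was above that in AC for ret (1.64), itga5 (1.44), meis3 (1.2) and bmp1a (0.986). Calls of the difference for nkx3-2, disc1, nr2f2, ret, meis3, bmp1a and tapt1b were lost in 1 or more fits that left an embryo out. Species and clutch cannot be told apart in these differences.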

How the results depend on the processing

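The genes called between RC 10ss and RC 4ss (1937) numbered 2942 without group weights, 2977 by DESeq2 on all embryos and 1800 with the replicate block. With the 5 embryos fitted alone they numbered 272 by limma (261 higher, 11 lower) and 1486 by DESeq2 (1215 higher, 271 lower). The range was 1176 to 2525 with single embryos left out (lowest without RC 4ss replicate 3, highest without RC 10ss replicate 1). The genes whose change differed between the species (498) numbered 250 with a pseudocount of 10, 2003 without group weights, 133 under quantile normalization, 2053 by DESeq2 and 1657 by edgeR on all embryos, and 419 with the replicate block. With the 11 embryos alone they numbered 19 by limma and 445 by DESeq2. With single embryos left out the range was 237 (without RC 10ss replicate 2) to 983 (without RC 10ss replicate 1), and it was 325 without AC 4ss replicate 3 and 328 without AC 10ss replicate 3. lncRNA calls (39) numbered 24 with RC embryos alone, 8 with the 5 embryos alone, 14 by DESeq2 on those 5, 43 with the replicate block and 18 (without RC 4ss replicate 1) to 47 with single embryos left out. TE calls (8) numbered 3 at a 2-fold threshold, 0 with the 5 embryos alone (by limma; DESeq2 on those 5 called 7, and 141 families had an unadjusted p under 0.05 by limma), 13 by DESeq2, 6 with the replicate block and 2 to 25 with single embryos left out (2 without RC 4ss replicate 1 and without RC 10ss replicate 3, 3 without RC 10ss replicate 2, 25 without RC 10ss replicate 1). Members of the symbol lists called (34) numbered 10 and those of the study's 3 lists (44) 9 by limma with the 5 embryos alone, and 23 to 37 and 28 (without RC 4ss replicate 3) to 50 with single embryos left out. No direction of a called gene of the text was reversed in these fits. The other alternatives left each of these counts within 1.5 times. Fits of 5 or 11 embryos have fewer samples to estimate the spread, and the cause of the changes was not tested.

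Deviations of the same-numbered RC 10ss and RC 4ss embryos had correlations of -0.04 (replicate 1) and 0.07 (replicate 3). With 2 RC 4ss embryos the deviations mirror each other, so whether a replicate number marks anything shared cannot be told from them. The replicate block changed the number of called genes from the values above by less than 1.5 times. Depth limits the lncRNAs most, with 87271 to 125479 reads per embryo.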
